A study of Oncorhynchus kisutch with 82 samples.

Results

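Coho salmon (Oncorhynchus kisutch) caught at sea as juveniles in fall 2008 were compared by their gill RNA between 6 fish assigned to the stock region Chilliwack_R and 7 fish assigned to the stock region Fraser. These 13 fish were chosen by their labels for season, year and stock region, out of 82 fish on 82 gill arrays. Both groups were seawater fish of the same year and season, with 1 fish per array. The amplified RNA of each fish carried Alexa 555, and a pool of the gill RNA of the whole series carried Alexa 647 on every array. The Chilliwack fish were 4 hatchery and 2 wild fish, against 2 hatchery and 5 wild fish of the Fraser stock. Sex was recorded as 3 females, 2 males and 1 fish of unrecorded sex in the Chilliwack stock, against 4 females and 3 males in the Fraser stock. The Chilliwack fish came from the capture areas north_SoG (1 fish), mid_SoG (3), south_SoG (1) and WCVI (1), against 6 fish of mid_SoG and 1 of south_SoG in the Fraser stock. No age in days and no treatment is given in the labels.

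Coho salmon hatch in rivers, turn into smolts, and move to sea. The gill takes up salt from the water in the river and excretes salt at sea. Ionocytes, the salt-handling cells of the gill, do this work beside cells of gas exchange, mucous cells, blood cells and immune cells, so bulk gill RNA is a mixture. Salmon stocks are breeding populations of particular rivers. The labels give stock regions, which can pool rivers, since Fraser smolts of the series came from both salmon and chehalis. The comparison asks whether fish of 2 such regions, called stocks here, still differ in gill RNA while sharing the sea. In bulk tissue, fewer cells of a type and less RNA per cell cannot be told apart.

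The values are the deposited log ratios of the fish and the pool, taken here as log2. No source used here states the direction of the ratio, so "higher" means a higher deposited log ratio, and not necessarily more RNA. Probes are named by their place on the array (column and row), because no table pairing them with genes or sequences was used here. For the same reason, the marker lists of gill cell types, ion transport and other pathways could not be applied, and the tissue label could not be checked against its markers.

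No probe separated the stocks after correction for the number of probes tested. Of 23692 probes with values in at least 50% and at least 2 of the fish of each stock, 0 (0%) were called with limma at an adjusted p below 0.05, and the smallest adjusted p was 0.439. Before adjustment, 2667 probes (11.3%) had p below 0.05, of which 1206 were higher and 1461 lower in Chilliwack fish. Chilliwack and Fraser fish did not overlap for 114 probes (0.481%), 89 of them higher and 25 lower in Chilliwack fish. This count mixes probes with a value in every fish and probes with few values, where overlap is less likely. It was not compared with the count due to chance.

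By the median correlation, fish of the same stock resembled each other about as much as fish of different stocks did. Over shared probes the median correlation between arrays was 0.54 for the 15 pairs of Chilliwack fish and 0.56 for the 21 pairs of Fraser fish. It was 0.52 for the 42 pairs of 1 Chilliwack and 1 Fraser fish. The ranges were wide, -0.07 to 0.82, 0.10 to 0.84 and -0.11 to 0.83 in the same order. Correlations of fish 836, 1012 and 922, from south_SoG and WCVI, with the 10 others ran from -0.11 to 0.61. Among those 10 they ran from 0.19 to 0.84. Pairs share fish and the pooled reference, so these correlations are a description with no test.

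The absence of calls does not show that the stocks were alike. The median of the Chilliwack minus Fraser differences was 0.09, with a 5th percentile of -1.06 and a 95th percentile of 0.73. The 95% interval of a probe's difference reached 0.65 to either side of it at the median. For 12080 probes (51.0%) the interval lay wholly between -1 and 1, and for the rest it reached past 1 log2 unit in at least 1 direction. Differences larger than 1 unit in size were measured at 1713 probes, 335 higher and 1378 lower in Chilliwack fish, with none of them called.

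The 20 probes named below are the 10 with the smallest unadjusted p in each direction. They were picked on the difference itself, so their differences are given as a description, and each has an adjusted p of 0.439 (limma). Differences of the 10 higher probes ran between 0.81 and 1.53, and those of the 10 lower probes between -0.77 and -1.99. The stocks did not overlap for 8 of the 10 higher and 3 of the 10 lower probes, against 114 of all 23692 probes tested (0.481%). Probes picked for a small p are likely to hold the stocks apart, so these counts are no separate result. A value was present in all 13 fish for 15 of the 20 probes. C051R029, C022R084 and C061R014, all without overlap, had only 3 or 4 values per stock, where overlap is less likely.

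**Figure D1:**
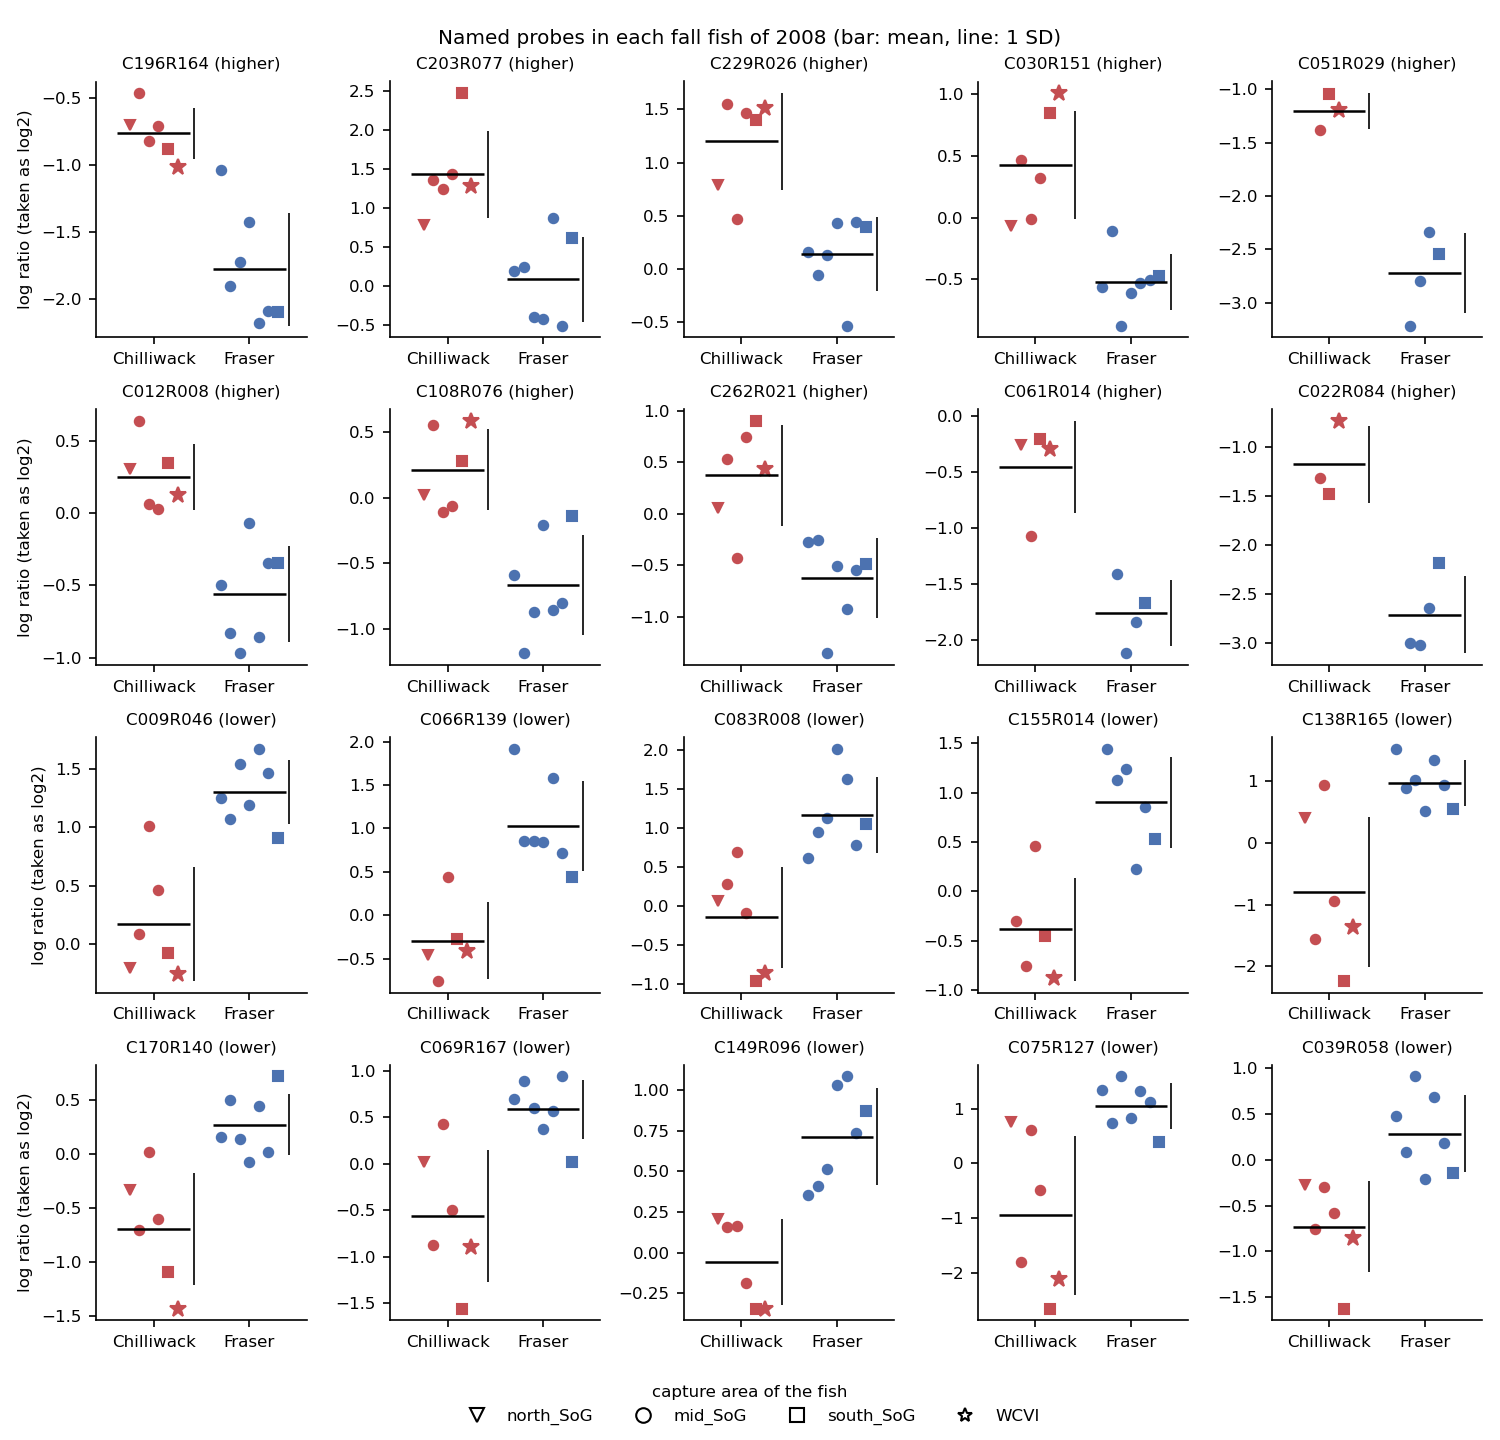
Deposited log ratio (vertical axis, taken as log2) of the 20 named probes in each fall fish of 2008, with Chilliwack fish on the left and Fraser fish on the right of each panel; the bar is the mean, the line 1 SD, and the symbol gives the capture area. The upper 10 panels hold probes higher in Chilliwack fish and the lower 10 probes lower in them. The stocks do not overlap in 11 of the 20 panels, picked for a small p, against 0.481% of all probes tested.

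C196R164 had the smallest p among the higher probes. Its log ratio was -1.01 at the lowest, -0.76 at the median and -0.46 at the highest of the 6 Chilliwack fish, against -2.18, -1.90 and -1.03 in the 7 Fraser fish. Every Chilliwack fish lay above every Fraser fish, by a narrow margin at fish 661, the highest of the Fraser stock. The difference was 1.02 with a 95% interval of 0.56 to 1.48, and it was 1.07 without the WCVI fish.

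C229R026 likewise held the stocks apart by a narrow margin. Chilliwack fish had a lowest value of 0.47, a median of 1.44 and a highest value of 1.55, against -0.53, 0.16 and 0.44 in Fraser fish. Fish 811 and 666 were the 2 lowest Chilliwack fish, at 0.47 and 0.79, and the other 4 lay between 1.40 and 1.55. The difference was 1.06 (95% interval 0.55 to 1.57).

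C203R077 had the largest difference among the higher probes measured in all 13 fish, 1.35 (95% interval 0.71 to 1.99). Its Chilliwack values were 0.78, 1.32 and 2.47 (lowest, median and highest), against -0.51, 0.19 and 0.86 in Fraser fish. The lowest Chilliwack fish, 666, lay below the highest Fraser fish, 797, so the groups overlapped.

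C012R008, C030R151 and C108R076 also had no overlap. For C012R008 the Chilliwack fish lay between 0.03 and 0.64, against -0.97 and -0.07 for the Fraser fish. For C030R151 the Chilliwack fish lay between -0.07 and 1.01, against -0.87 and -0.11 for the Fraser fish. In C030R151 the 2 highest fish of all were the south_SoG fish 836, at 0.85, and the WCVI fish 1012, at 1.01. C108R076 lay between -0.11 and 0.59 in Chilliwack fish, against -1.19 and -0.14 in Fraser fish, where fish 922 was the highest. C262R021 overlapped, since fish 811, at -0.43, lay below the highest Fraser fish, at -0.26.

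The higher probes with the largest differences rest on few fish. C022R084 had values of -1.31, -1.48 and -0.73 in 3 Chilliwack fish (826, 836 and 1012). Its values were -3.00, -3.01, -2.64 and -2.18 in 4 Fraser fish (661, 797, 824 and 922). Of these, fish 836, 1012 and 922 came from south_SoG or WCVI. C051R029 had -1.38, -1.04 and -1.19 in the same 3 Chilliwack fish, against -3.22, -2.79, -2.34 and -2.54 in the same 4 Fraser fish. Their differences were 1.53 and 1.52, and without the WCVI fish too few Chilliwack values were left for a test. C061R014 had -0.26, -1.08, -0.21 and -0.30 in 4 Chilliwack fish, against -1.42, -2.12, -1.85 and -1.67 in 4 Fraser fish.

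Among the lower probes, C009R046 had the smallest p of all probes, 0.000223 before and 0.439 after adjustment (limma). Chilliwack fish had a lowest value of -0.26, a median of 0.00 and a highest value of 1.01, against 0.91, 1.25 and 1.67 in Fraser fish. Fish 811 was the highest Chilliwack fish and lay above the lowest Fraser fish, the south_SoG fish 922. The difference was -1.13 (95% interval -1.63 to -0.63).

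C149R096 and C039R058 were lower in every Chilliwack fish than in any Fraser fish. C149R096 lay between -0.35 and 0.21 in Chilliwack fish, against 0.35 and 1.08 in Fraser fish, the smallest difference of the 20 at -0.77. C039R058 lay between -1.63 and -0.28 in Chilliwack fish, against -0.21 and 0.91 in Fraser fish. The third lower probe with no overlap, C066R139, lay between -0.75 and 0.44 in 5 Chilliwack fish, against 0.45 and 1.92 in Fraser fish, so that 0.44 in fish 811 and 0.45 in fish 922 almost met.

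The largest difference of the 20 probes was that of C075R127, -1.99 (95% interval -3.08 to -0.91). Its 6 Chilliwack values were spread widely, with -2.66 at the lowest, -1.15 at the median and 0.75 at the highest, against 0.39, 1.12 and 1.59 in Fraser fish. The lowest Chilliwack fish were 836 (-2.66), 1012 (-2.11) and 793 (-1.81), while 666 (0.75) and 811 (0.62) lay inside the range of the Fraser fish. C138R165 and C069R167 also had fish 836 lowest, at -2.24 and -1.56, and fish 811 highest, at 0.94 and 0.43. Their Fraser fish lay between 0.51 and 1.53 for C138R165 and between 0.02 and 0.94 for C069R167.

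The remaining 3 lower probes also overlapped. C083R008 lay between -0.96 and 0.70 in Chilliwack fish, against 0.62 and 2.02 in Fraser fish, and fish 836 and 1012 were again the lowest. C155R014 lay between -0.88 and 0.46 in 5 Chilliwack fish, against 0.23 and 1.45 in 6 Fraser fish. C170R140 lay between -1.43 and 0.02 in Chilliwack fish, against -0.07 and 0.72 in Fraser fish, with fish 1012 the lowest and fish 922 the highest.

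The comparison was repeated without the WCVI fish and with origin as a covariate. Without fish 1012, caught in WCVI, 1332 of 23233 probes (5.73%) had an unadjusted p below 0.05, and 0 were called, with a smallest adjusted p of 0.753 (limma). With origin as a covariate and all 13 fish, the count was 3739 of 23692 (15.8%), again with 0 called. With both changes it was 1313 of 23233 (5.65%), with 0 called. Of the 2667 probes with p below 0.05 in all 13 fish, 2617 were tested without the WCVI fish, and 1239 had p below 0.05 there too. The median size of the difference was 0.32 with all 13 fish and 0.25 without the WCVI fish, while the median standard error was 0.30 in both.

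The share of probes with a small p moved with single fish. Leaving out 1 fish at a time gave 1175 probes with p below 0.05 without fish 836 (Chilliwack, south_SoG), the lowest count. The highest was 5380 without fish 922 (Fraser, south_SoG), and it was 4799 without fish 811 (Chilliwack, mid_SoG). No probe was called in any of these 13 fits, nor in 23 other settings, and the smallest adjusted p over them was 0.0675, with array weights. Of the 20 named probes, none changed sign in any of the settings that could test it. They were picked on the difference in these same fish, which nearly all settings share, so this is not separate evidence.

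**Figure D2:**
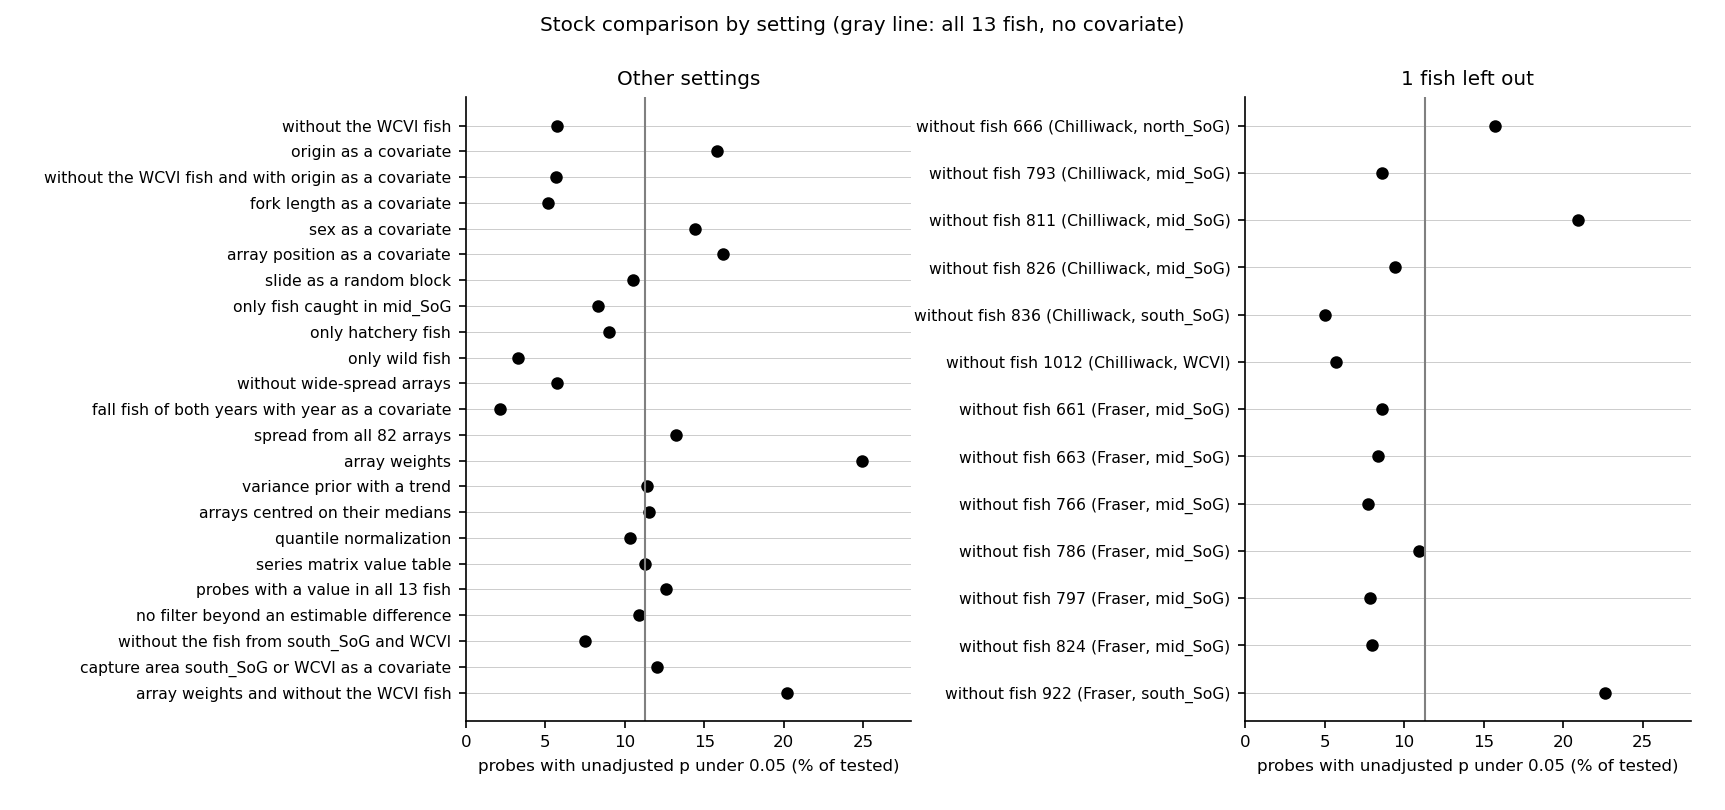
Percentage of tested probes with an unadjusted p below 0.05 (horizontal axis) for the Chilliwack minus Fraser comparison, in 23 other settings on the left and with 1 fish left out on the right; the gray line marks the 11.3% of the comparison with all 13 fish. Leaving out fish 836 or 1012 gave lower shares, leaving out fish 811 or 922 gave higher ones, and no setting gave a called probe.

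The main axis of variation among the 13 arrays set apart 3 fish of both stocks. The first principal component of the 16750 probes with a value in every fish held 53.9% of the variance. The 3 fish of south_SoG and WCVI scored 152.9 (fish 1012, Chilliwack), 100.9 (fish 836, Chilliwack) and 62.6 (fish 922, Fraser). The 10 fish of mid_SoG and north_SoG scored between -56.8 and 19.7. The same 3 fish were among the longest, at 32.8, 28.2 and 27.2 cm, with the other 10 between 21.5 and 27.2 cm. Fish 797 (Fraser, mid_SoG) stood apart on the second component, which held 12.7% of the variance.

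**Figure D3:**
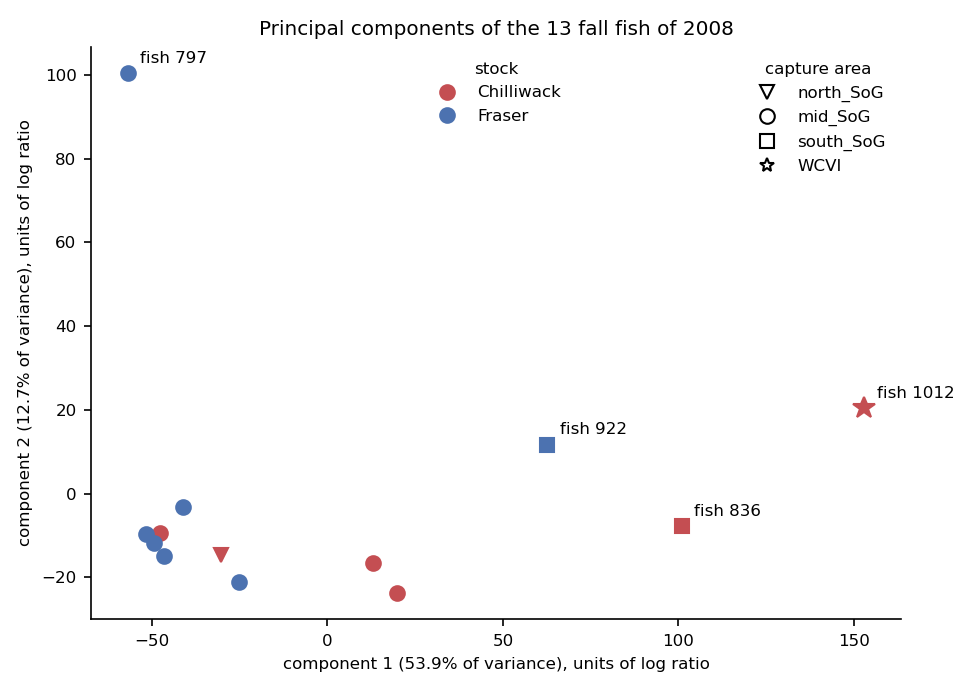
Scores of the 13 fall fish of 2008 on the first principal component (horizontal axis) and the second (vertical axis), with colour for stock and symbol for capture area. The 3 fish of south_SoG and WCVI, 2 Chilliwack and 1 Fraser, have the highest scores on the first component, and fish 797 stands apart on the second.

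This contrast of capture areas was chosen after the components had been seen, in the same fish, and is a description of them. It follows the area names of the labels, which do not order these fish by latitude. By the labelled coordinates, fish 922 of south_SoG was caught farther north than fish 811, 824 and 826 of mid_SoG. Fish 836 of south_SoG was caught nearer to those mid_SoG fish than to fish 922 or 1012, with which it is grouped here. The WCVI fish 1012 was caught farther south and west than all the others. With stock in the fit, 9608 of 23020 probes (41.7%) were called with limma between the 3 fish of south_SoG and WCVI and the 10 others, and 6140 of 22215 (27.6%) without the WCVI fish. C212R001 had the largest such difference among called probes with all 13 values, -4.93. It was at -5.00, -5.99 and -2.29 in fish 836, 1012 and 922, and its median in the 10 others was 1.09. Its stock difference was -2.33, with an adjusted p of 0.439 (limma). Not every called probe had the 3 fish alike. C089R116, called with a difference of 3.24, was at 3.04 in fish 836, but at -1.11 in fish 1012 and -2.21 in fish 922. The latter lay inside the range of the 10 others, -4.57 to -0.47, as did fish 1012. C146R162, also called, was at 5.46 in fish 922, but at 0.41 in fish 836 and 0.22 in fish 1012.

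The capture area contrast gave no call in other fish. Among Fraser fall fish of 2009, 8 from south_SoG and 3 from the mid and north areas, 0 of 22517 probes (0%) were called with limma, and 1790 had an unadjusted p below 0.05. None of these fish came from WCVI. By the labelled coordinates, the 8 south_SoG fish of 2009 were caught farther east than the south_SoG fish 836 and 922 of 2008. Of the 9608 probes called in 2008, 9214 were tested in 2009, and 7.75% of these had the same sign, against 21.1% of all 21778 probes tested in both. The sign was thus opposite for most of the 9214 probes. C212R001 lay between -5.77 and 1.53 in the 8 south_SoG fish of 2009, against -5.57 and -4.90 in the other 3. Capture area, fork length and stock overlap in part in the 13 fish of 2008. Stock was also fitted with fork length or with capture area as a covariate, and those counts are given further below. With this overlap in so few fish, such fits do not separate their parts in the stock differences.

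No fish or array measure differed between the stocks past the threshold. Fork length was 27.1 ± 3.17 cm in Chilliwack fish (SD, n = 6), against 25.1 ± 1.95 cm in Fraser fish (SD, n = 7), with an exact permutation p of 0.240 and an adjusted p of 0.512 over the 6 measures tested. Mass was 261 ± 87.6 g in Chilliwack fish, against 199.5 ± 44.1 g in Fraser fish (exact permutation p = 0.118, adjusted p = 0.512). Without the WCVI fish, the longest and heaviest of the 13, the difference in length was 0.771 cm, against 1.92 cm with it, and that in mass was 27.3 g, against 61.5 g with it. Probes with a value numbered 24152 ± 864 per Chilliwack array, against 25985 ± 4397 per Fraser array (exact permutation p = 0.341, adjusted p = 0.512). The SD of the log ratios over an array was 0.945 ± 0.221 in Chilliwack fish, against 0.924 ± 0.0859 in Fraser fish (exact permutation p = 0.825, adjusted p = 0.825). Condition factor, 100 times mass over the cube of length, and the array median had adjusted p of 0.512 and 0.698 in the same exact permutation tests.

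The 13 arrays lay on 10 slides, and only 1 slide held both stocks, with the WCVI fish 1012 and the Fraser fish 824. All 20 named probes had the same sign between these 2 fish as between the stocks, against 82.5% of the 21740 probes with values in both. The 2 fish are among the 13, so this is not separate evidence.

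Smolts caught in rivers gave a stock comparison before the sea, with 15 Chilliwack smolts of 2008 and 12 Fraser smolts of 2009. Year and river cannot be told apart from stock there. Both groups held hatchery and wild smolts, and the Fraser hatchery smolts all came from chehalis and the wild ones all from salmon. Fish 36, a Chilliwack smolt, was much shorter and lighter than all the other smolts. Of 20771 probes, 7443 (35.8%) were called with limma, 4016 higher and 3427 lower in Chilliwack smolts. Widely spread log ratios are frequent on the smolt arrays, and without such arrays 2923 of 22274 probes were called. The stock difference of fall fish minus that of smolts was called at 3017 of 20771 probes (14.5%), and at 1042 without the arrays of wide spread.

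Of the 20 named probes, 15 had enough values for the test in smolts, and 3 of these had the same sign there as in fall fish, against 49.5% of all probes. The 3 were C196R164, C012R008 and C009R046, with smolt differences of 0.11, 0.03 and -0.10. Of the 5 probes with too few smolt values, the means of 4 ran the same way as in fall fish. C051R029 averaged -1.20 in Chilliwack smolts (n = 5) and -2.36 in Fraser smolts (n = 6), and C061R014 averaged -0.30 (n = 5) and -0.96 (n = 7) in the same order. C022R084 averaged -1.68 in Chilliwack smolts (n = 5) and -2.53 in Fraser smolts (n = 3). C155R014 averaged 0.09 in Chilliwack smolts (n = 7) and 0.14 in Fraser smolts (n = 9). The fifth, C030R151, ran the other way, at -0.50 in Chilliwack smolts (n = 7) and 0.14 in Fraser smolts (n = 12). C196R164 averaged -1.92 ± 0.51 in Chilliwack smolts (SD, n = 13) and -2.03 ± 0.70 in Fraser smolts (SD, n = 10), a difference of 0.11 with an adjusted p of 0.728 (limma). C149R096, lower in Chilliwack fall fish, averaged 1.33 ± 1.04 in Chilliwack smolts (SD, n = 15) and 0.02 ± 0.37 in Fraser smolts (SD, n = 12), with an adjusted p of 0.000189 (limma). C069R167, also lower in Chilliwack fall fish, averaged 0.63 ± 0.81 in Chilliwack smolts (SD, n = 14) and -0.53 ± 0.88 in Fraser smolts (SD, n = 12), with an adjusted p of 0.00191 (limma). In all, 7 of the 15 probes (46.7%) were called in smolts, beside 35.8% of all probes tested there, and these 7 had the opposite sign in fall fish. With 15 probes, this share is not read as particular to them.

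The only fall fish of 2009 from the Chilliwack stock, fish 3232, was set against 11 Fraser fall fish of 2009, with no test for a single fish. Fish 3232 and 8 of the 11 Fraser fish came from south_SoG, whereas most of the 13 fish of 2008 came from mid_SoG. None of the 20 named probes had the sign of 2008 in fish 3232, against 24.9% of all 23507 probes with values. Whether capture area or year had a part in this was not tested. C196R164 was at -2.36 in fish 3232, below the range of -1.77 to -0.50 of the Fraser fish. C009R046 was at 1.77 in fish 3232, above the range of -1.71 to 0.92 of the Fraser fish. C075R127 was at 1.27 in fish 3232, against -3.48 to 0.82 in the Fraser fish, also above all of them. For most of the 20 named probes, however, fish 3232 lay inside the range of the Fraser fish. For example, C203R077 was at 0.83 in fish 3232, within -0.19 to 2.79. C149R096 was at 0.07 in fish 3232, within -1.23 to 0.67.

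**Figure D4:**
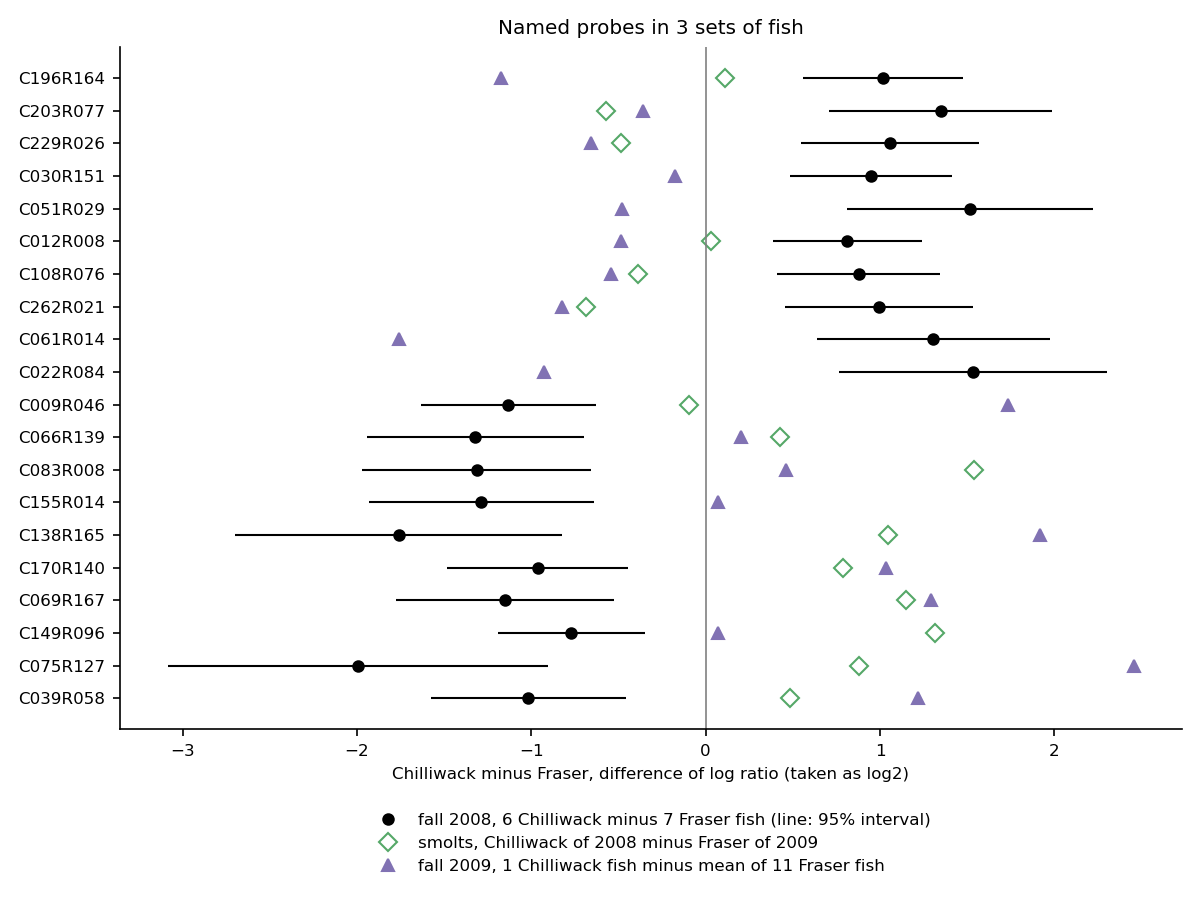
Chilliwack minus Fraser difference of the log ratio (horizontal axis, taken as log2) of the 20 named probes in fall fish of 2008 (points, with 95% intervals), in smolts (diamonds, 15 probes) and in the single Chilliwack fall fish of 2009 against 11 Fraser fish (triangles). All 20 triangles and 12 of the 15 diamonds lie on the other side of 0 from the 2008 point, on which the probes were picked.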

How the data were processed

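Gill RNA was measured on 2-colour arrays, 1 fish per array. The authors deposited a log ratio of both channels per spot, taken here as log2. No source used here gives the log base, the direction, the background correction, the normalization or the rule behind empty values. The authors' deposited series table, likewise taken as log2, held the same values for the 13 fish and was an alternative. Of the 43236 probes, those with enough values were tested, 60 control spots were left out, and no empty value was filled in. Stock, season, year, area, origin and sex came from the labels.

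Fits used lmFit and eBayes of limma 3.58.1 (R 4.3.3) for each probe, with two-sided p-values adjusted by Benjamini-Hochberg over all probes tested, and called at an adjusted p below 0.05. Fish and array measures were compared by two-sided exact permutation tests over all 1716 groupings, or all 792 without the WCVI fish (scipy 1.17.1). The smolt comparison and its difference from the fall fish come from 1 fit of 4 groups. The fit of the stock comparison was also run on simulated data with independent noise at each probe. The real arrays vary together across many probes, so that run cannot show how the fit behaves on them.

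The fish, tests and lists were chosen with earlier results of these data known. Probes were named as the 10 with the smallest unadjusted p in each direction, since none was called. The stock comparison was run in 36 settings beside the one reported, 3 of them chosen after seeing the data. A further 8 fits of single factors and 3 fits of capture area were also chosen after seeing the data. Each fish is a separate animal, and the number of arrays limits the precision. Gene lists of pathways and cell types were not used here, since no table paired probes with genes.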

Additional observations from a re-analysis of the deposited data

Results flagged for a closer look

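In 2 of 50 groups examined, 1 fish lay far from the others of its group, and chance alone flags about 1 in 20 groups. The mass of the WCVI fish 1012 was 432 g, against 259.4 g in the next heaviest Chilliwack fish. The probe C061R014 was at -1.08 in the Chilliwack fish 826, against -0.30 in the next lowest of the 4 Chilliwack fish with a value.

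The stock difference of fall fish differed from that of smolts at 3017 of 20771 probes (14.5%) in the interaction test with limma. Among the named probes, 12 of the 15 tested were called there, with adjusted p between 0.00134 and 0.00537. These probes were picked on the fall difference, which is one side of this contrast, so the calls are not independent of the choice, and in the smolts stock cannot be told apart from year and river. The fall difference minus the smolt difference was 1.92 for C203R077, 1.54 for C229R026, 1.26 for C108R076 and 1.68 for C262R021. It was -1.75 for C066R139, -2.85 for C083R008, -2.81 for C138R165, -1.75 for C170R140 and -2.30 for C069R167. It was -2.09 for C149R096, -2.87 for C075R127 and -1.50 for C039R058.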

How the results depend on the processing

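In fall fish, 0 probes were called in each of the 36 other settings, the range over left-out fish being 0 to 0. The counts with an unadjusted p below 0.05 ran from 508 of 23745 probes (fall fish of both years with year as a covariate) to 5905 of 23692 (array weights, where the smallest adjusted p was 0.0675). The count fell to 1232 with fork length as a covariate, 681 in wild fish alone and 1175 without fish 836. It was 5380 without fish 922, 4799 without fish 811 and 4701 with array weights and no WCVI fish. Among the settings chosen after seeing the data, leaving out the 3 fish of south_SoG and WCVI gave 1847 of 24591 (smallest adjusted p 0.0680), and their area as a covariate gave 2838 (smallest adjusted p 0.305). The setting without arrays of wide spread removed only the WCVI fish and is the same fit. The 692 values of named probes over these settings kept their sign, with 0 called. Since the probes were picked on the difference in these same fish, the kept sign is not separate evidence. Without arrays of wide spread, 2923 probes were called in smolts and 1042 in the difference between fall fish and smolts, which had 4726 with origin as a covariate. Without the WCVI fish, the difference in array SD turned to -0.0557, with an exact permutation p of 0.399. The cause of these shifts was not tested. No paired analysis was possible because replicate numbers were given in accession order and pair no fish. The number of arrays, 6 against 7, limits what could be called.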

Other observations

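Other labelled factors were each fitted alone in the same 13 fish with limma, after the data had been seen. Origin gave 318 probes with an unadjusted p below 0.05 and 0 called, and sex, in 12 fish, gave 584 and 0 called. Stock gave 2667 and 0 called. Fork length gave 9807 with 6025 called, and without the WCVI fish 4141 with 0 called. Capture area, south_SoG or WCVI against mid_SoG or north_SoG, gave the most, 12537 with 10551 called, and without the WCVI fish 9565 with 6092 called. That contrast was defined after the principal components of these fish had been seen, and gave 0 calls in Fraser fall fish of 2009. The factors overlap among so few fish that these counts cannot be read as separate parts.

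The 2 fall fish of 2008 outside both stocks entered no comparison. Fish 785, of the stock region S_Main, was at -0.56 for C009R046 and 0.40 for C030R151. Fish 796, with no stock region given, was at 1.45 for C009R046 and -0.41 for C030R151. For most named probes with a value in both, fish 785 likewise differed from fish 796 in the direction of the Chilliwack minus Fraser difference. C075R127, for example, was at 0.10 in fish 785 and 1.76 in fish 796. Only C012R008 and C066R139 ran the other way. C012R008 was at -0.32 in fish 785 and -0.21 in fish 796. For C066R139, fish 785 was at 0.76, inside the Fraser range of 0.45 to 1.92. Fish 796 was at 0.14 for this probe, inside the Chilliwack range of -0.75 to 0.44. These values assign neither fish to a stock.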
